A study of Mus musculus with 6 samples.

Results

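The translation initiation and elongation factor genes were taken as every locus whose symbol begins with Eif or Eef followed by a digit, leaving out the Y-linked Eif2s3y. Of 23244 loci in the files, 65 met this rule. They comprised 54 initiation and elongation factors and their close partners, 4 Eif2ak kinases, 3 Eif4ebp genes and 4 genes listed under the older symbols Eif2c1 to Eif2c4. The Eif2c genes encode the Argonaute proteins of small-RNA silencing, now called Ago1 to Ago4, and are not translation factors, so they were counted as members and kept apart. RNA was sequenced from mouse embryonic stem (ES) cells, in 3 libraries of a subcloned Zscan10-null line and 3 libraries of control cells whose Zscan10 was floxed but not deleted. The null state had been made by Cre-loxP deletion, the control titles carry the mark -Tx, whose meaning is not given. Total RNA was depleted of ribosomal RNA before library preparation. The null cells are a subclone of an inducible knockout line. Whether the 3 libraries of each group stem from different cultures is not given. Subclone, genotype and any difference in treatment therefore cannot be told apart, and p-values measure the spread between these libraries, which may be technical.

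Initiation factors bring the small ribosomal subunit, the initiator tRNA and the mRNA together, and elongation factors then deliver each aminoacyl-tRNA and move the ribosome along. The eIF2 trimer carries the initiator tRNA with GTP, and eIF2B recharges it with GTP after each round. Phosphorylation of the eIF2 alpha subunit by the Eif2ak kinases turns eIF2 into an inhibitor of eIF2B, which is the core of the integrated stress response. The eIF4F complex reads the cap of the mRNA, and the 4E-binding proteins of the Eif4ebp genes block its assembly until the mTOR kinase phosphorylates them.

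No unit is stated for the values, and they were read from their pattern as FPKM, fragments scaled for transcript length and library depth. On that reading, levels can be set beside each other between genes. Zscan10 was at 5.49, 4.43 and 5.47 FPKM in the null libraries, against 44.2, 43.0 and 41.9 FPKM in the control libraries, the direction the labels give. The FPKM of all loci summed to between 664555 and 678200 in the null and between 685905 and 699401 in the control libraries. Relative depth, read from the spacing of low values, was 0.986 to 1.09 times that of control replicate 1. All 8 ES cell markers examined were above 1 FPKM, and their summed level was 3870.4 to 4178 FPKM in null and 4156 to 4249 FPKM in control libraries. Dppa5a supplied the largest share of that sum, and 7 of the 8 had a negative log2 fold change, of which Esrrb (-0.21, adjusted p = 0.00941) and Zfp42 (-0.23, adjusted p = 0.0188) passed. The summed markers of 3 other cell types were lower in the null libraries, but not every marker was. Fibroblast markers, 8 genes with none at 0 but Col1a1, Col1a2 and Col3a1 under a mean of 1 FPKM over the 6 libraries, summed to 9.66 to 15.7 FPKM in null and 17.7 to 21.6 FPKM in control libraries. Of these, Acta2 and Tagln were lower, while Thy1 was higher, at 2.98 ± 0.141 FPKM in null and 1.65 ± 0.492 FPKM in control (SD, n = 3 each; adjusted p = 0.0215). Col1a1 and Col1a2, too low to be tested, averaged 0.0861 and 0.0776 FPKM in null and 0.738 and 1.13 FPKM in control. For both, every null library lay below every control library, while the groups overlapped for Col3a1. Endoderm markers, 8 genes of which Sox17, Sox7, Gata6 and Foxa2 were under that mean and Foxa2 at 0 in 1 library, summed to 9.70 to 14.7 FPKM in null and 29.3 to 32.1 FPKM in control libraries, most of it in Lama1 (6.92 ± 1.78 FPKM in null and 23.9 ± 0.795 FPKM in control). Of the endoderm markers Lama1 and Cubn were lower and none was higher. Neural markers, 6 genes with none at 0, summed to 60.3 to 68.5 FPKM in null and 86.8 to 94.7 FPKM in control libraries, most of it in Tubb3 (51.4 ± 5.59 FPKM in null and 67.1 ± 5.25 FPKM in control), and 4 of the 6 were lower and none higher. In bulk RNA, fewer cells of a type and less RNA per cell cannot be told apart, and the part of these markers in the factor values was not tested.

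The factor genes differed little between null and control cells. The 51 factors that reached a mean of 1 FPKM over the 6 libraries were tested with limma on log2(FPKM + 1), with adjustment over all 11480 loci tested. At an adjusted p under 0.05, 11 factors were higher in null cells and 4 were lower, that is 29.4% of the 51, against 25.2% of all loci tested. By direction these are 21.6% higher and 7.84% lower among the factors, against 12.8% and 12.4% of all loci. Most factors are abundant, and among the 1866 loci that averaged 50 FPKM or more the same split was 23.7% higher and 9.38% lower, against 25% and 5% of the 40 factors at that level. The median log2 fold change of the factors was 0.03, against -0.003 for all loci. Every factor tested lay within 0.5 of 0 on the log2 scale, as did 10622 of the 11480 loci. Of the 1866 loci that averaged 50 FPKM or more, 1764 lay within it. The libraries of the 2 groups did not overlap for 17 factors that were higher and 9 that were lower, against 21.6% of all loci with every null library above and 22.5% with every null library below the control libraries, 44.1% in either direction. With quantile normalization the split turned to 3 factors higher and 7 lower, as described at the end. The number of factors past the threshold was 8 without control replicate 1, 5 without control replicate 2, 9 without control replicate 3 and 9 without null replicate 3. Eif2s2, Eif2d and Eif2b5, which encode the eIF2 beta subunit, the alternative initiation factor eIF2D and the catalytic subunit of eIF2B, were higher in null cells under all 15 alternatives tried.

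**Figure D1:**
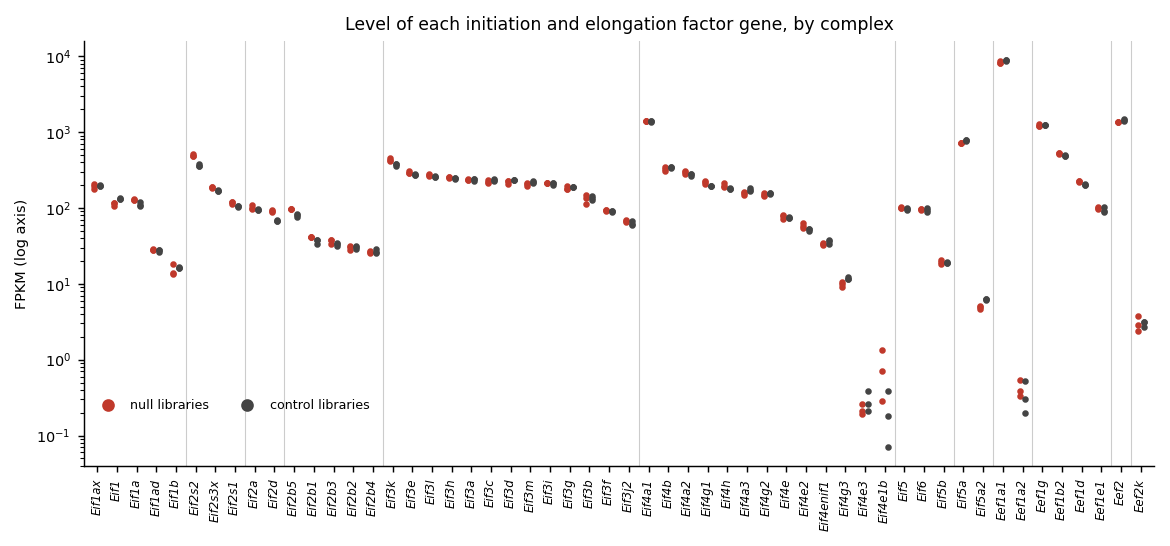
Level of the 54 factor genes in FPKM on a log axis, grouped by complex, with null libraries to the left and control libraries to the right of each gene. Levels spanned from under 1 FPKM for Eif4e3, Eif4e1b and Eef1a2 to a mean of 8312 FPKM in null and 8803 FPKM in control cells for Eef1a1, and the 2 groups lay close together for nearly every gene.

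Together the 54 factors made up 2.95%, 3.03% and 3.02% of all FPKM in the null libraries, against 2.98%, 2.91% and 2.96% in the control libraries, which overlap. The initiation factors summed to 7615, 7659 and 7699 FPKM in the null libraries, against 7346, 7345 and 7350.4 FPKM in the control libraries, so each null library lay above each control library. The elongation factors, eIF5A included, summed to 12397, 12664 and 12358 FPKM in the null libraries, against 13181, 13022 and 12951 FPKM in the control libraries, in the opposite order. These sums follow the most abundant genes, and Eef1a1 alone supplied most of the elongation sum. The FPKM of all loci summed lower in each null library than in each control library. As a share of all FPKM, the elongation factors overlapped, at 1.828%, 1.888% and 1.8597% in null and 1.916%, 1.862% and 1.888% in control libraries. By that share each null library still lay above each control library for the initiation factors. The median log2 fold change was 0.035 for the 42 initiation factors tested and 0.044 for the 1866 loci that averaged 50 FPKM or more. After quantile normalization the median of the 51 factors tested was -0.007, and the sums were not made in that setting.

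All 3 eIF2 subunit genes (100%) were higher in null cells, with the beta subunit ahead of the other 2. The share higher was 12.8% of all loci and 23.7% of the loci that averaged 50 FPKM or more, as these 3 did. Eif2s2, the beta subunit that contacts the initiator tRNA, was at 509, 477 and 485 FPKM in the null libraries, against 361, 360.2 and 383 FPKM in the control libraries. The groups were well apart, at 490.5 ± 16.7 FPKM in null and 368 ± 12.8 FPKM in control (SD, n = 3 each), 1.33 times as high in null cells (log2 fold change 0.41, SE 0.04, limma adjusted p = 0.000948). Eif2s1, the alpha subunit that the Eif2ak kinases phosphorylate, was at 114, 118 and 121 FPKM in the null libraries, against 104, 103 and 106 FPKM in the control libraries (log2 fold change 0.17, SE 0.04, adjusted p = 0.0141). Eif2s3x, the X-linked copy of the GTP-binding gamma subunit, was at 185, 190.1 and 191 FPKM in the null libraries, against 171, 168 and 169 FPKM in the control libraries (log2 fold change 0.15, SE 0.03, adjusted p = 0.0120). Neither gene's groups overlapped. Eif2s3x has a close Y-linked copy, Eif2s3y, with which it can share reads and which was at 87.6, 75.7 and 88.6 FPKM in null and 76.1, 76.4 and 75.7 FPKM in control libraries. Both copies together were at 273 ± 6.65 FPKM in null and 245 ± 1.48 FPKM in control (SD, n = 3 each). The levels of the 3 subunits were unequal in both groups, with Eif2s2 highest and Eif2s1 lowest. After quantile normalization Eif2s1 and Eif2s3x were not called (adjusted p = 0.0809 and 0.0976), nor without control replicate 2 (0.0554 and 0.0504).

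The promoters of the 3 eIF2 subunit genes, of Eif2d and of Eif2b5 are shown because these genes serve the same step and were all higher in null cells. The sequences are RefSeq's on build GRCm38.p6, from 120 bases before to 30 bases after the annotated start, on the gene's own strand. Capitals mark a match on either strand to 1 of 3 motifs, the NRF1 core GCATGCGC, the ETS site CCGGAAG and the YY1-type site AAGATGGC.
Eif2s1, chr12:78861952-78862101, plus strand: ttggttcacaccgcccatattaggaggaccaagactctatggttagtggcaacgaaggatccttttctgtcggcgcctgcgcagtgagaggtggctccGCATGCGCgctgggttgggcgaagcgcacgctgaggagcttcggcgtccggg
Eif2s2, chr2:154892877-154893026, minus strand: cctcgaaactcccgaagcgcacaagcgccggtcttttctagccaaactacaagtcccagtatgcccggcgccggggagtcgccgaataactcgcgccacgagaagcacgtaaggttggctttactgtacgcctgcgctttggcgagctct
Eif2s3x, chrX:94212622-94212771, minus strand: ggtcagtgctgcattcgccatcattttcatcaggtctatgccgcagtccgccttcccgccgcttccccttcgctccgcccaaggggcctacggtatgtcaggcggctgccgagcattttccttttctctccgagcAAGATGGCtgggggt
Eif2d, chr1:131153087-131153236, plus strand: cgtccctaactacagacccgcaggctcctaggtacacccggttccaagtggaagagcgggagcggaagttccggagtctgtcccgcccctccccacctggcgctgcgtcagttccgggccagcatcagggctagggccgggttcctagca
Eif2b5, chr16:20498697-20498846, plus strand: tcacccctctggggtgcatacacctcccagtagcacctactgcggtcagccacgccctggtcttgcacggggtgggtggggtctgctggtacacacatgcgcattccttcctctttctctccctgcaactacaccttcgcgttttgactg
The 5 stretches had no match in common among these 3 motifs. Eif2s1 held the NRF1 core, Eif2s3x held the YY1-type site just after its start, and the other 3 stretches held none of them.

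Eif2d and Eif2a encode factors that can deliver initiator tRNA without the eIF2 trimer. Eif2d was at 87.7, 91.8 and 92.7 FPKM in the null libraries, against 67.6, 68.4 and 66.5 FPKM in the control libraries. It had the highest log2 fold change of the 51 factors tested, with 90.8 ± 2.66 FPKM in null and 67.5 ± 0.968 FPKM in control (SD, n = 3 each; log2 fold change 0.42, SE 0.04, adjusted p = 0.000613). The Eif2d locus overlaps Rassf5, which was low, at 1.52 FPKM in null and 1.16 FPKM in control cells. Eif2a was at 97.5, 101 and 110.3 FPKM in the null libraries, against 95.1, 95.8 and 93.9 FPKM in the control libraries, without overlap but short of the threshold (log2 fold change 0.11, adjusted p = 0.135).

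Of the 5 subunit genes of eIF2B, the exchange factor that recharges eIF2, 2 were higher in null cells and none was lower. That is 40% called, against 25.2% of all loci. Eif2b5, the catalytic epsilon subunit, was at 97.2, 97.6 and 96.4 FPKM in the null libraries, against 77.0, 81.1 and 83.9 FPKM in the control libraries (log2 fold change 0.27, SE 0.04, adjusted p = 0.00409). It was also the most abundant of the 5 genes in both groups. Eif2b1, the alpha subunit, was at 41.7, 40.9 and 41.7 FPKM in the null libraries, against 37.8, 33.3 and 37.8 FPKM in the control libraries (log2 fold change 0.19, SE 0.06, adjusted p = 0.0462). The Eif2b1 call was lost in 10 of 15 alternatives, among them leaving out any 1 of the 6 libraries, with adjusted p of 0.0624 to 0.111. Eif2b3, of the catalytic arm, was at 36.2 ± 2.41 FPKM in null and 32.8 ± 1.423 FPKM in control (adjusted p = 0.133), and its groups overlapped. Eif2b2 and Eif2b4, of the regulatory core, had log2 fold changes of -0.02 and -0.03.

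**Figure D2:**
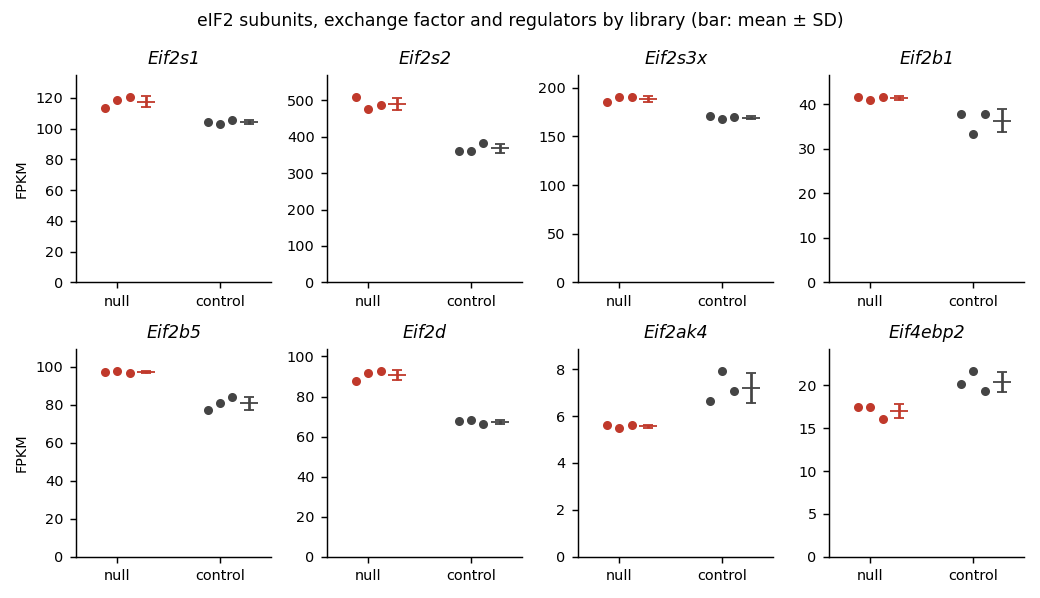
FPKM in each library for genes of the eIF2 cycle and its regulators, with null libraries on the left and control libraries on the right of each panel, and the mean ± SD beside the 3 points. Each panel has its own axis from 0. Null libraries lay above control libraries for the eIF2, eIF2B and eIF2D genes shown and below them for Eif2ak4 and Eif4ebp2.

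The 4 Eif2ak genes encode the kinases that phosphorylate eIF2 alpha, and 1 of them was lower in null cells, 25% of the 4, against 25.2% of all loci. Eif2ak4 encodes GCN2, the kinase that senses uncharged tRNA during amino acid shortage. It was at 5.60, 5.49 and 5.60 FPKM in the null libraries, against 6.64, 7.91 and 7.06 FPKM in the control libraries. Control replicate 2 was the highest, the groups did not overlap, and the log2 fold change was -0.32 (SE 0.07, adjusted p = 0.02003). The call was lost without null replicate 2 (adjusted p = 0.0571), null replicate 3 (0.0537), control replicate 2 (0.0669) or control replicate 3 (0.0542). Eif2ak2, the double-stranded RNA sensor PKR, was at 7.10, 8.26 and 7.41 FPKM in the null libraries, against 6.94, 5.79 and 6.45 FPKM in the control libraries, without overlap but short of the threshold (log2 fold change 0.22, adjusted p = 0.101). The Eif2ak2 locus overlaps Gm6548, which was far higher, at 69.5 FPKM in null and 75.8 FPKM in control cells, so the Eif2ak2 values are uncertain. Eif2ak3, the endoplasmic reticulum stress kinase PERK, was at 7.38, 11.7 and 7.48 FPKM in the null libraries, against 8.34, 8.07 and 8.23 FPKM in the control libraries. Null replicate 2 alone lay above the control range there (adjusted p = 0.772). Eif2ak1, the heme-regulated kinase HRI, was the most abundant of the 4, at 19.6 ± 1.28 FPKM in null and 19.2 ± 0.336 FPKM in control (SD, n = 3 each; adjusted p = 0.746).

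Among the start-site selection factors eIF1 and eIF1A, 1 gene was lower and 1 higher, 40% of the 5 listed, against 25.2% of all loci. Eif1, which keeps the scanning ribosome open until a start codon is met, was at 118, 117 and 105 FPKM in the null libraries, against 136, 133 and 133 FPKM in the control libraries (log2 fold change -0.24, SE 0.05, adjusted p = 0.0144). This call was lost without control replicate 1 (0.0553). Eif1a, an autosomal gene for eIF1A, was at 128, 126 and 133 FPKM in the null libraries, against 107, 109.8 and 118 FPKM in the control libraries (log2 fold change 0.20, SE 0.05, adjusted p = 0.0180). That call was lost without null replicate 3 (0.058), control replicate 1 (0.0649) or control replicate 2 (0.0673), and with quantile normalization (0.0589). Eif1ax, its X-linked copy, was at 180, 195 and 204 FPKM in the null libraries, against 198, 193 and 193 FPKM in the control libraries, and the groups overlapped (log2 fold change -0.01, 95% interval -0.13 to 0.10). The Eif1a and Eif1ax genes are close copies that can share reads, so their separate values are uncertain. Eif1b, the second eIF1 gene, was at 18.3, 13.3 and 13.7 FPKM in the null libraries, against 16.2, 16.7 and 16.1 FPKM in the control libraries, with null replicate 1 above and the other null libraries below the control range. Eif1ad, which encodes a protein with an eIF1A-like domain, was at 28.1 ± 0.469 FPKM in null and 27.3 ± 0.788 FPKM in control. Its locus overlaps Banf1, at 228 FPKM in null and 238 FPKM in control cells.

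The eIF3 complex, the largest initiation factor and the scaffold that joins the small subunit to eIF4F, hardly differed. Of 13 eIF3 genes, with a median log2 fold change of 0.02, 1 was higher, none was lower and 12 did not pass. That is 7.7% called, against 25.2% of all loci and 33.1% of the loci that averaged 50 FPKM or more. The exception was Eif3k, a peripheral subunit, at 422, 421 and 449 FPKM in the null libraries, against 384, 374 and 361 FPKM in the control libraries (log2 fold change 0.21, SE 0.04, adjusted p = 0.0114). It was also the most abundant eIF3 gene in both groups, and it was not called after quantile normalization (0.115). The other 12 ran from -0.10 for Eif3m to 0.12 for Eif3e on the log2 scale. The largest core subunit Eif3a, at 235.4 ± 2.65 FPKM in null and 235.4 ± 7.45 FPKM in control (SD, n = 3 each), had a 95% interval of -0.08 to 0.08 for its log2 fold change. Eif3e came nearest to the threshold, at 292, 287 and 305 FPKM in the null libraries, against 268, 268 and 279 FPKM in the control libraries (adjusted p = 0.0547). Within null cells the eIF3 genes spanned 67.2 FPKM for Eif3j2 to 431 FPKM for Eif3k, and within control cells 62.9 to 373 FPKM for the same 2 genes. The Eif3j2 value is uncertain, since RefSeq places its accession on chromosome 18 and a near-identical gene, Eif3j1, on chromosome 2, and reads of both can fall in the 1 deposited locus.

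In the cap-binding complex eIF4F and its partners, 1 of 11 tested genes was higher and 1 lower, 18.2% called, against 25.2% of all loci. Both encode the eIF4G scaffold that links the cap-binding protein, the helicase and eIF3. Eif4g1, the main form, was at 209, 225 and 218 FPKM in the null libraries, against 195, 197 and 196 FPKM in the control libraries (log2 fold change 0.15, SE 0.04, adjusted p = 0.0239). Eif4g3, the minor form, was at 9.83, 10.7 and 8.98 FPKM in the null libraries, against 11.7, 11.5 and 12.3 FPKM in the control libraries (log2 fold change -0.25, SE 0.07, adjusted p = 0.0388). Neither gene's groups overlapped. The log2 ratio of Eif4g3 to Eif4g1 was -4.41, -4.40 and -4.60 in the null libraries, against -4.06, -4.09 and -3.99 in the control libraries. Its exact two-sided permutation p was 0.1, the smallest that 3 against 3 libraries allow (0.14 adjusted over 7 paralog pairs). As the 2 genes separated in opposite directions, their ratio had to separate, so this p adds nothing to the 2 calls. The same p of 0.1 was found for Eif4g2 over Eif4g1, Eif4e2 over Eif4e, Eif1ax over Eif1a and Eif5a2 over Eif5a. It was 0.2 for Eif4a2 over Eif4a1 and 0.6 for Eif1b over Eif1. The Eif4g1 call was lost with quantile normalization (adjusted p = 0.236), without the variance trend (0.0677), and without null replicate 2 (adjusted p = 0.0644), null replicate 3 (0.0645), control replicate 1 (0.0757), control replicate 2 (0.0698) or control replicate 3 (0.063). The Eif4g3 call was lost with no FPKM minimum (0.0621) and without null replicate 1 (0.07), null replicate 3 (0.0971), control replicate 1 (0.0954), control replicate 2 (0.0882) or control replicate 3 (0.115). Eif4g2, which encodes the eIF4G relative DAP5 that lacks the cap-binding protein's site, was at 150.4 ± 8.02 FPKM in null and 158 ± 2.86 FPKM in control (adjusted p = 0.280).

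The cap-binding protein and the helicases of eIF4F showed no call. Eif4e, the cap-binding protein itself, was at 77.6, 72.4 and 80.3 FPKM in the null libraries, against 76.7, 74.3 and 74.3 FPKM in the control libraries, and the groups overlapped (log2 fold change 0.03, 95% interval -0.08 to 0.14). Eif4e2, a cap-binding relative that represses translation, was at 57.6, 53.7 and 64.2 FPKM in the null libraries, against 52.9, 49.97 and 53.4 FPKM in the control libraries, without overlap but short of the threshold (adjusted p = 0.117). Eif4a1, the main helicase, was the most abundant initiation factor gene, at 1385, 1416 and 1398 FPKM in the null libraries, against 1388, 1398 and 1369.9 FPKM in the control libraries (log2 fold change 0.01, adjusted p = 0.764). Its paralog Eif4a2 was at 279.1, 301 and 304 FPKM in the null libraries, against 278.6, 261 and 278.5 FPKM in the control libraries, and null replicate 1 lay just above the control range (adjusted p = 0.121). The Eif4a2 locus overlaps the gene Rfc4, at 46.4 FPKM in null and 49.8 FPKM in control, and 2 small nucleolar RNA loci, so its fragments may not all be its own. Eif4a3, a core protein of the exon junction complex that marks spliced mRNA, was at 158, 148 and 161 FPKM in the null libraries, against 181, 169.8 and 166 FPKM in the control libraries, without overlap (adjusted p = 0.0624). The helicase cofactors Eif4b and Eif4h had log2 fold changes of -0.07 and 0.14 (adjusted p = 0.254 and 0.0909), and Eif4enif1, the 4E transporter, -0.11 (adjusted p = 0.188).

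Eif4e1b, an oocyte form of the cap-binding protein, and Eif4e3 stayed under a mean of 1 FPKM and outside the test. Eif4e1b was at 0.719, 1.34 and 0.284 FPKM in the null libraries, against 0.184, 0.381 and 0.0712 FPKM in the control libraries. The groups overlapped, and the adjusted p was 0.164 in the fit without a minimum. Eif4e3 was at 0.263, 0.190 and 0.208 FPKM in the null libraries, against 0.260, 0.381 and 0.208 FPKM in the control libraries, a level that rested on about 4.97 fragments in control replicate 1.

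The Eif4ebp genes encode the repressors that hold Eif4e away from the scaffold, and 1 of 3 was lower in null cells, 33.3%, against 25.2% of all loci. Eif4ebp2 was at 17.5, 17.4 and 16.1 FPKM in the null libraries, against 20.2, 21.7 and 19.3 FPKM in the control libraries, with no overlap (log2 fold change -0.25, SE 0.06, adjusted p = 0.0218). The call was lost without null replicate 3 (0.0644), control replicate 1 (0.0644) or control replicate 2 (0.0765). Eif4ebp1, by far the most abundant of the 3, was at 432, 380.3 and 364 FPKM in the null libraries, against 405, 379 and 374 FPKM in the control libraries, and the groups overlapped (log2 fold change 0.02, 95% interval -0.13 to 0.18). Eif4ebp3 was at 15.8, 14.5 and 10.9 FPKM in the null libraries, against 13.8, 12.01 and 13.1 FPKM in the control libraries (adjusted p = 0.739).

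None of the 3 genes of eIF5, eIF5B and eIF6 passed in limma, and the lowest unadjusted p was 0.277. Eif5, the GTPase activator of eIF2, was at 99.6, 99.4 and 101 FPKM in the null libraries, against 94.99, 97.6 and 99.5 FPKM in the control libraries (log2 fold change 0.04, 95% interval -0.04 to 0.12). The short small nucleolar RNA gene Snora28 lies within Eif5, with a mean of 125 FPKM in null and 54.3 FPKM in control cells. Eif5b, the GTPase that joins the large subunit, was at 19.4 ± 1.24 FPKM in null and 18.9 ± 0.179 FPKM in control, and Eif6, which keeps free large subunits apart from small ones, at 95.7 ± 0.739 FPKM in null and 94.0 ± 5.52 FPKM in control (SD, n = 3 each).

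Both genes of eIF5A, the hypusine-bearing factor that eases peptide bond formation at difficult stretches such as proline runs, were lower in null cells. That is 100% of the 2, against 12.4% of all loci. Eif5a was at 708, 721 and 708 FPKM in the null libraries, against 775, 775 and 754 FPKM in the control libraries (log2 fold change -0.11, SE 0.03, adjusted p = 0.0409). Its minor paralog Eif5a2 was at 4.64, 4.87 and 5.13 FPKM in the null libraries, against 6.20, 6.24 and 6.35 FPKM in the control libraries (log2 fold change -0.31, SE 0.06, adjusted p = 0.0145). The groups of neither gene overlapped. The Eif5a call was lost in 11 of 14 alternatives, among them leaving out any 1 library, with adjusted p of 0.0531 to 0.133. The Eif5a locus overlaps the end of Gps2, at 18.1 FPKM in null and 23.3 FPKM in control cells, and strand use in the counting is not given. The Eif5a2 call was lost without control replicate 2 (0.0516) or control replicate 3 (0.0505).

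Of the elongation factors proper, the GTPases that work on the ribosome showed no call and 2 genes of the exchange complex were higher. These 2 are 50% of the 4 genes of that complex and its partners. The share higher was 12.8% of all loci and 23.7% of the loci that averaged 50 FPKM or more, as these 4 did. Eef1a1, which delivers aminoacyl-tRNA, was the most abundant member by far, at 8180.2, 8516 and 8239.5 FPKM in the null libraries, against 8881, 8759 and 8768 FPKM in the control libraries. The groups did not overlap, but the log2 fold change of -0.08 did not pass (95% interval -0.17 to 0.01, adjusted p = 0.157), and after quantile normalization it was 0.17 (adjusted p = 0.255). Its muscle and neuronal paralog Eef1a2 was at 0.330, 0.536 and 0.391 FPKM in the null libraries, against 0.521, 0.299 and 0.196 FPKM in the control libraries, on about 8.26 fragments in control replicate 1. Eef2, the translocase, was at 1361, 1372 and 1342 FPKM in the null libraries, against 1474, 1459 and 1401 FPKM in the control libraries, without overlap but short of the threshold (log2 fold change -0.09, adjusted p = 0.103). Its inhibitory kinase Eef2k was at 3.71, 2.41 and 2.85 FPKM in the null libraries, against 3.17, 3.15 and 2.72 FPKM in the control libraries (adjusted p = 0.931).

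The eEF1B complex recharges eEF1A with GTP. Eef1b2, an exchange subunit, was at 519, 523 and 534 FPKM in the null libraries, against 493, 484 and 479.8 FPKM in the control libraries (log2 fold change 0.11, SE 0.03, adjusted p = 0.0357). Eef1d, the other exchange subunit, was at 228, 219 and 226 FPKM in the null libraries, against 206, 201 and 201 FPKM in the control libraries (log2 fold change 0.15, SE 0.03, adjusted p = 0.0162). Neither gene's groups overlapped. The Eef1d call was lost without control replicate 2 (0.0619), with quantile normalization (0.177) and without the variance trend (0.0561). The Eef1b2 call was lost in 9 of 15 alternatives, among them leaving out null replicate 2 (0.0718), null replicate 3 (0.0973), control replicate 1 (0.0701), control replicate 2 (0.111) or control replicate 3 (0.0888). The small nucleolar RNA gene Snora41 lies within Eef1b2 and had a mean of 0 FPKM in null cells and 55.5 FPKM in control cells. Its values per library are not given here, and for so short a gene a few fragments make a large FPKM. Eef1g, the structural subunit, was at 1292, 1210.3 and 1198 FPKM in the null libraries, against 1253, 1246 and 1235 FPKM in the control libraries, and the groups overlapped (log2 fold change -0.01, 95% interval -0.10 to 0.08). Eef1e1, a partner found in the multi-tRNA synthetase complex, was at 99.4 ± 3.07 FPKM in null and 94.1 ± 8.25 FPKM in control.

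**Figure D3:**
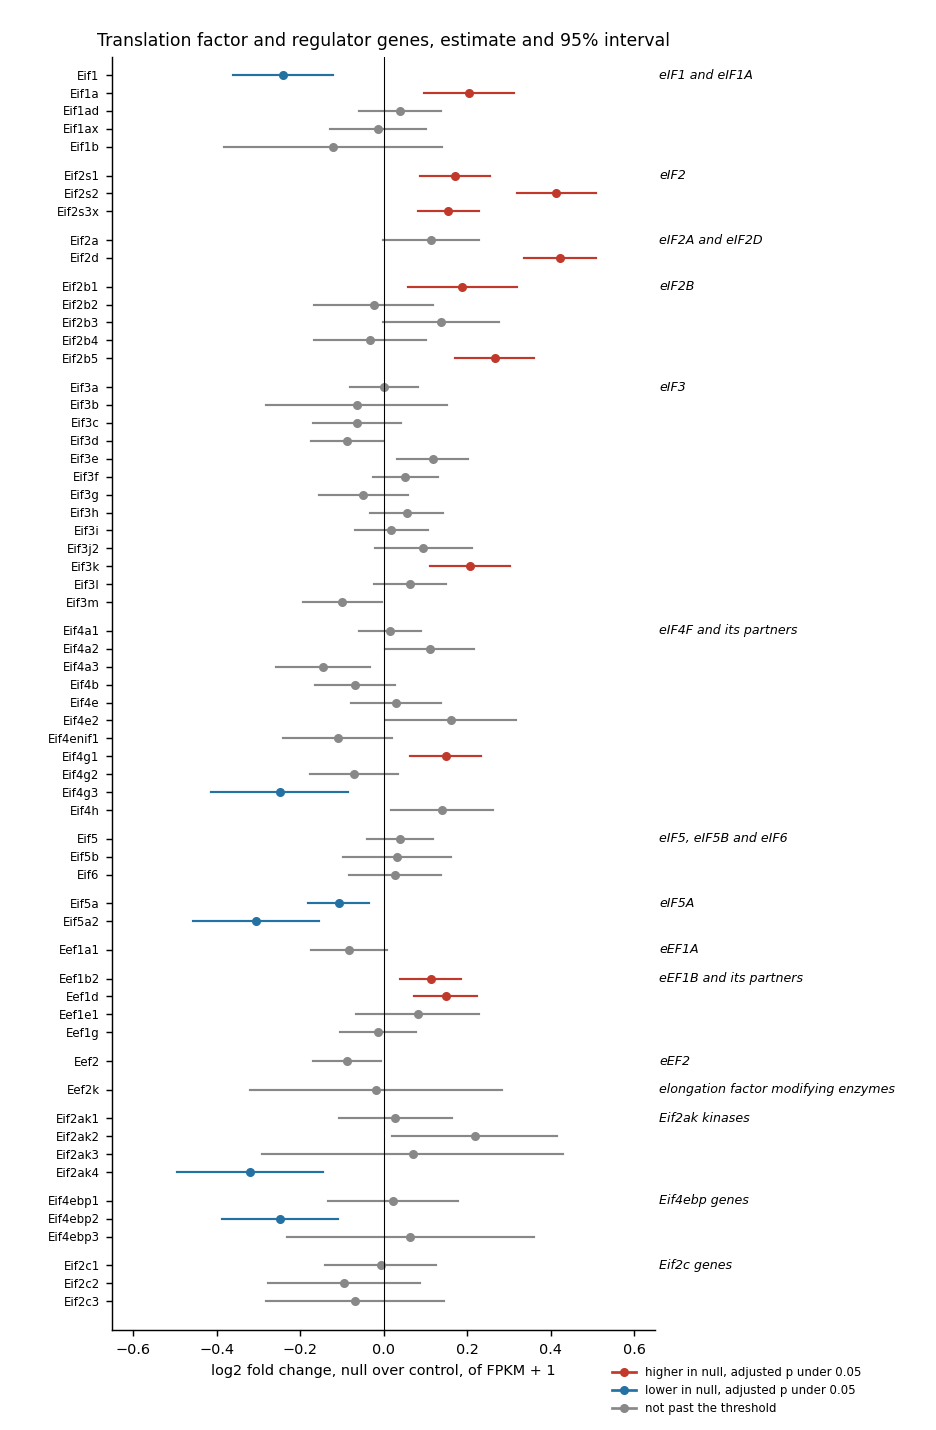
Log2 fold change of FPKM + 1, null over control, with its 95% interval from limma, for the 61 members tested, grouped by complex. Red and blue mark genes higher and lower in null cells at an adjusted p under 0.05. The 3 eIF2 genes and Eif2d lie to the right of 0, while 12 of the 13 eIF3 genes are grey and lie near 0.

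None of Eif2c1, Eif2c2 and Eif2c3 passed in limma (lowest unadjusted p 0.259), with log2 fold changes of -0.01, -0.10 and -0.07. Eif2c2, the slicing Argonaute Ago2, was the most abundant, at 15.9 ± 1.499 FPKM in null and 17.1 ± 1.05 FPKM in control (SD, n = 3 each). Eif2c4 was at 0.115, 0.104 and 0.0569 FPKM in the null libraries, against 0.0568, 0.0348 and 0.0571 FPKM in the control libraries, and was not tested.

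Outside the factor families, 82 further genes were taken from lists of termination, poly(A) binding, cap-dependent control, eIF2 control, scanning, modification, other GTPases and mitochondrial translation. Hbs1l, in both the termination and the GTPase list, was counted once in this total. Of the 81 tested, 13 were higher and 9 lower in null cells, that is 27.2%, against 25.2% of all loci. Their median log2 fold change was 0.01, against -0.003 for all loci. Among termination and recycling genes 2 of 9 were higher and none was lower, 22.2% called. Etf1, the release factor that reads stop codons, averaged 196 ± 6.25 FPKM in null and 163 ± 4.53 FPKM in control (log2 fold change 0.27, adjusted p = 0.00326). Abce1, the recycling ATPase, averaged 251 ± 4.73 FPKM in null and 231 ± 5.10 FPKM in control (log2 fold change 0.12, adjusted p = 0.0335). Of the poly(A)-binding proteins and partners 2 of 8 were higher and 1 lower, 37.5% called. Paip2b, an inhibitor of poly(A)-binding protein, averaged 45.2 ± 2.71 FPKM in null and 32.3 ± 0.988 FPKM in control (log2 fold change 0.47, adjusted p = 0.00147). Its relative Paip2 averaged 127 ± 3.51 FPKM in null and 111 ± 1.04 FPKM in control (log2 fold change 0.19, adjusted p = 0.00785). Larp1, which binds mRNAs with a 5′ pyrimidine tract, averaged 66.1 ± 1.60 FPKM in null and 72.5 ± 1.504 FPKM in control (log2 fold change -0.13, adjusted p = 0.0389).

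In the list of kinases and repressors of cap-dependent initiation none of 18 was higher and 3 were lower. That is 16.7% called, all of it lower, against 25.2% of all loci called, 12.8% higher and 12.4% lower. Cyfip2, a partner of FMRP, averaged 2.92 ± 0.136 FPKM in null and 4.84 ± 0.0979 FPKM in control (log2 fold change -0.58, adjusted p = 0.00184). Rps6kb1, the S6 kinase downstream of mTOR, averaged 17.8 ± 0.127 FPKM in null and 21.0 ± 1.29 FPKM in control (log2 fold change -0.23, adjusted p = 0.0227). Cyfip1, an Eif4e-binding repressor, averaged 23.4 ± 0.406 FPKM in null and 26.1 ± 0.516 FPKM in control (log2 fold change -0.15, adjusted p = 0.0342). Among the genes around eIF2 phosphorylation, 1 of 11 was higher and 2 were lower, 27.3% called, against 25.2% of all loci. Dnajc3, the inhibitor p58IPK of PERK and PKR, averaged 7.54 ± 0.485 FPKM in null and 11.7 ± 0.346 FPKM in control (log2 fold change -0.57, adjusted p = 0.00143). Metap2, an eIF2-associated aminopeptidase, averaged 39.9 ± 1.16 FPKM in null and 45.9 ± 0.159 FPKM in control (log2 fold change -0.20, adjusted p = 0.0104). Bzw1, an eIF5 mimic, averaged 203 ± 4.70 FPKM in null and 183 ± 3.70 FPKM in control (log2 fold change 0.15, adjusted p = 0.0177). Ppp1r15a and Ppp1r15b, which guide the phosphatase that restores eIF2, did not pass (adjusted p = 0.278 and 0.849).

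Of 9 scanning helicases and ABC factors 3 were higher and none was lower, 33.3% called, against 25.2% of all loci. The 3 were the helicase gene Ddx3x (log2 fold change 0.17, adjusted p = 0.0125), Abcf1 (0.20, adjusted p = 0.00566) and Abcf2 (0.16, adjusted p = 0.0189). Of 7 hypusine and diphthamide enzymes 2 were higher and none was lower, 28.6% called. Dohh, which completes the hypusine of eIF5A, averaged 65.1 ± 0.615 FPKM in null and 54.5 ± 2.53 FPKM in control (log2 fold change 0.25, adjusted p = 0.00609), the opposite direction to Eif5a. Dph3, of the diphthamide pathway that modifies eEF2, averaged 11.5 ± 0.586 FPKM in null and 9.52 ± 0.474 FPKM in control (log2 fold change 0.25, adjusted p = 0.0274). Of 8 genes listed as other elongation GTPases and partners 1 was higher and 2 were lower, 37.5% called. The list included Eftud2, which encodes a GTPase of splicing rather than translation and did not pass (adjusted p = 0.298). Sbds, of the pathway that frees Eif6 from new large subunits, averaged 37.9 ± 5.01 FPKM in null and 29.6 ± 2.39 FPKM in control (log2 fold change 0.34, adjusted p = 0.0397). Eefsec, the selenocysteine elongation factor, averaged 10.1 ± 0.812 FPKM in null and 13.2 ± 0.793 FPKM in control (log2 fold change -0.35, adjusted p = 0.0137), and Gtpbp1 had a log2 fold change of -0.26 (adjusted p = 0.0165). Of 12 mitochondrial translation factors 2 were higher and 1 lower, 25% called. The higher were the release factor gene Mtrf1 (log2 fold change 0.26, adjusted p = 0.0461) and the elongation factor gene Tufm (0.15, adjusted p = 0.0457). The lower was the ribosome rescue gene Ict1 (-0.19, adjusted p = 0.0338).

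The 940 tested loci of chromosome 11 had a median log2 fold change of -0.12, against 0.005 over the 10540 other loci. The chromosome carried 5 factor genes, Eif1, Eif4a1, Eif4a3, Eif4enif1 and Eif5a, and 2 of the 4 factors that were lower, Eif1 and Eif5a, were among them. The log2 fold change of Eif5a, -0.11, was no lower than this median, and that of Eif1, -0.24, was below it. Of all tested loci on chromosome 11, 6.06% were higher and 27.7% lower, against 13.4% higher and 11.1% lower on the other chromosomes. The 46 factors tested on other chromosomes had 11 higher and 2 lower, with a median of 0.04. Larp1, Cyfip2, Rps6kb1 and Ict1 of the other translation genes also lie on chromosome 11. The part of the chromosome in these values was not tested.

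**Figure D4:**
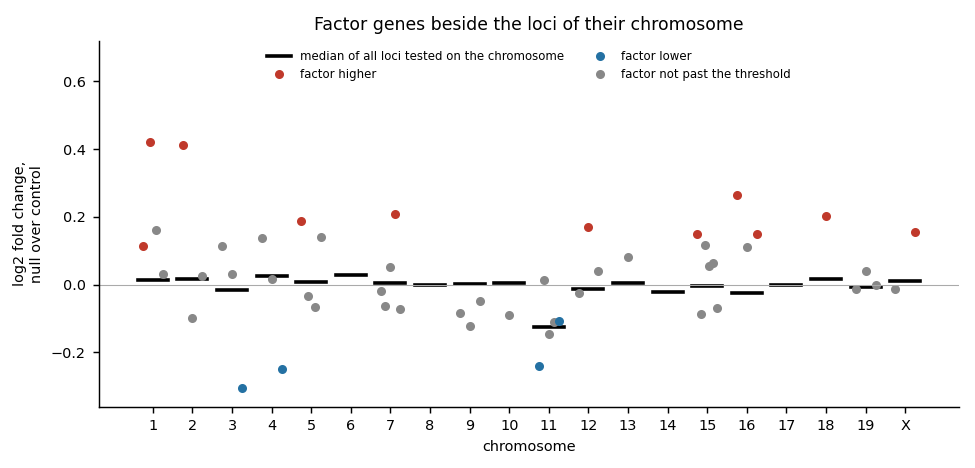
Log2 fold change, null over control, of each tested factor gene (points) by chromosome, with the median of all loci tested on that chromosome as a black bar. Eif3j2 is not drawn because its place is uncertain. The median bar of chromosome 11 lies at -0.12, and the bars of the other chromosomes drawn lie within 0.03 of 0.

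The number and direction of the calls depended on how the libraries were scaled. After quantile normalization, which gives all libraries the same distribution of values, 3 factors were higher (Eif2s2, Eif2d and Eif2b5) and 7 lower, with 6 of the 15 original calls kept. Of all 11480 loci, 1331 were higher and 1367 lower in that setting, 23.5% in all. The log2 fold change of the factors moved by a median of -0.06, and 43 of the 51 moved down. Among genes averaging about 50 FPKM or more, the median shift was -0.07 for 40 factors and -0.05 for 1835 loci. Eif3d, Eif3m, Eif4a3 and Eif4b became lower calls (adjusted p = 0.0208, 0.0209, 0.0215 and 0.0233). Eif2s2 had a log2 fold change of 0.30 (adjusted p = 0.00644), Eif2d 0.37 (0.00117) and Eif2b5 0.21 (0.0142) in that setting. Centring each library on its median left 15 calls, of which 14 were among the original 15.

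**Figure D5:**
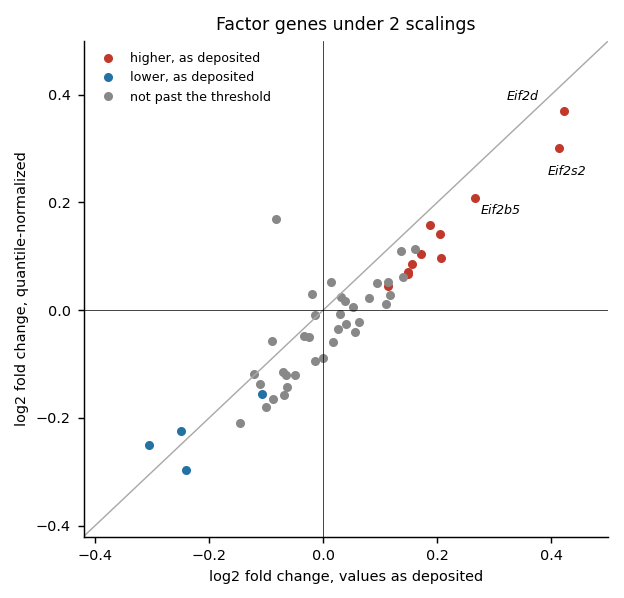
Log2 fold change, null over control, of each tested factor gene with values as deposited (horizontal axis) and after quantile normalization (vertical axis), with the line of equal values in grey. Most points lie below the line, Eef1a1 lies above it at -0.08 and 0.17, and Eif2s2, Eif2d and Eif2b5 stay highest in both.

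Promoter windows of 250 bases before to 50 bases after the start were found in the RefSeq table for 42 of the 54 factors, in 56 windows. All motifs were searched on both strands, and the E-box CACGTG and the cyclic AMP response element TGACGTCA read the same on both. The ETS site CCGGAAG was in 32.1% of factor windows, against 18.5% of the windows of tested loci and 8.86% of all 32851 windows. The E-box CACGTG was in 25% of factor windows, against 10.5% and 7.15%. The GC box GGGCGG was in 71.4%, against 64% and 35.7%, and the CCAAT box was in 25%, against 38.5% and 37.4%. The NRF1 core was in 8.93% of factor windows, against 5.53% and 2.71%, and the YY1-type site AAGATGGC in 8.93%, against 4.7% and 2.75%. The cyclic AMP response element TGACGTCA was in 1.79%, against 3.26% and 1.79%, and the ATF4 element TGATGNAA in 3.57%, against 2.16% and 3.97%. Of the 9 factors higher in null cells that had a window, 1 held the ETS site, 2 the E-box and 2 the NRF1 core, so none of these 3 motifs was common to them.

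Many mRNAs of the translation machinery begin with a pyrimidine tract, the 5′ TOP motif through which mTOR and Larp1 control their translation. A run of C followed by at least 5 pyrimidines, within 10 bases of the annotated start, was present for 8 of the 42 factors, in 16.1% of their windows, against 16% of the windows of tested loci and 15.1% of all windows. The factors with such a run included Eif2s3x, Eif4g1 and Eif2b5, which were higher, and Eef1a1, Eif3f, Eif3l, Eif4e and Eif4enif1, which did not pass. The starts of 4 abundant factors that did not pass are shown, from 15 bases before to 15 bases after the annotated start on GRCm38.p6. Capitals mark the first run up to the end of the window searched, and whether such a run is a 5′ TOP tract was not tested.
Eef1a1, chr9:78481710-78481739, minus strand: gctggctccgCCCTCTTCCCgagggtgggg
Eif3f, chr7:108934400-108934429, plus strand: tctgttctaggCTCTCTCTCTTTCTcggca
Eif3l, chr15:79075208-79075237, plus strand: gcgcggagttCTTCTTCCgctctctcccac
Eef2, chr10:81176616-81176645, plus strand: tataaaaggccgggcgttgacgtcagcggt
The Eef2 stretch held no such run at the annotated start. Which starts these cells use was not measured, and an annotated start can lie away from the one used. A run shown here need not open the mRNA, and a stretch without one does not show that the mRNA lacks a tract.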

How the data were processed

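Each of the 6 files lists loci with a symbol, RefSeq accessions and a single value. The unit is stated nowhere; from their pattern the deposited values were read as FPKM made by the authors. Per the submitters' processing notes, the build was mm10 and the tools included TopHat, Cuffdiff, FastQC and Trim Galore; their versions, strand use and any scaling between libraries are not given.

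Differences were tested with limma 3.58.1 under R 4.3.3, using lmFit and eBayes with a variance trend, on log2(FPKM + 1), which understates changes of low genes. The fit took 11480 loci averaging 1 FPKM or more, with Benjamini-Hochberg adjustment and a threshold of 0.05. No raw counts were used here; relative depth came from shared steps between values under 0.15 FPKM, and fragments from those steps and transcript lengths. Genome places (23196 of 23244 loci) and promoters came from RefSeq on GRCm38.p6, the same assembly as mm10. The test was tried on simulated data first. There, a gene made to differ by 1.25 times between groups was called in 38.8% of cases. This rose to 74.8% where the difference was 1.5 times, and to 92% where it was 2 times. A factor that did not pass may therefore still differ by a small amount. Alternatives changed the pseudocount, filter, scaling, variance estimate, replicate block, chromosomes and each library in turn.

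Named were, in each complex, up to 4 members past the threshold per direction and the most abundant one, paralog pairs, all Eif2ak and Eif4ebp genes, and up to 3 called genes per list. Other members, and the 7 paralog ratios, were added after their values were seen. Members and lists were chosen with earlier results of these data known.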

Additional observations from a re-analysis of the deposited data

How the results depend on the processing

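Eif2s2, Eif2d and Eif2b5 kept their call in all 15 alternatives, and of the 253 alternative values of called members 187 kept the call, 66 lost it and none changed sign. Against 15 factors past the threshold (11 higher, 4 lower), quantile normalization gave 3 higher and 7 lower, no variance trend 7 higher, no FPKM minimum 2 lower, and leaving out chromosomes 11 and Y 2 lower, the last because Eif1 and Eif5a are removed. The cause of the other shifts was not tested. Without 1 library the factors ran from 5 to 15 (4 to 12 higher, 1 to 3 lower), the Eif2ak and Eif4ebp genes from 0 to 2 against 2, all loci from 1697 to 2903 against 2894 (915 to 1472 against 1468 higher, 782 to 1431 against 1426 lower), and the other translation genes from 11 to 23 against 22 (6 to 13 against 13 higher, 4 to 10 against 9 lower). The other translation genes came to 14 with no variance trend (8 higher), 7 higher with quantile normalization, and 5 lower without chromosomes 11 and Y. Replicate numbers did not pair the libraries (correlations of deviations -0.00242, 0.108 and 0.0527; 3 of 6 libraries correlated best with their own number). With the replicate block 11 factors passed, 2 of them lower (Eef1b2, Eif2b1, Eif4g3 and Eif5a lost their calls), and 8 other translation genes were higher. Genes under 1 FPKM rested on few fragments.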
